A study of Danio rerio with 24 samples.

Results

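The DNA methylation of zebrafish iridophores was compared with that of the late neural crest cells (late NCCs) from which this lineage arises, over stretches of 500 bp. Iridophores are the light-reflecting pigment cells of the fish, which hold stacks of purine crystals. Their library came from cells isolated from mlphaj120 larvae, a melanophilin mutant line, at 4 to 5 dpf (days post fertilization). Late NCCs were GFP-positive cells sorted from Tg(crestinA:EGFP) embryos at 24 hpf (hours post fertilization), a line in which a crestin element drives the reporter. Melanophores, the black pigment cells, from mlphaj120 larvae of 4 to 5 dpf and early NCCs of 15-somite Tg(crestinA:EGFP) embryos served for orientation. The step from late NCCs to iridophores is therefore also a step between fish lines and between ages, and the parts of cell type, line and age in any change cannot be told apart. Early and late NCCs share a line, as do iridophores and melanophores.

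In vertebrates most CpGs carry a methyl group on their cytosine, and the unmethylated remainder lies mainly in CpG-rich promoters and in active regulatory elements. Maintenance methyltransferases copy the mark at each cell division. It can be lost passively, when copying fails, or actively, when TET enzymes oxidize it, and de novo methyltransferases add it. Whole-genome bisulfite sequencing (WGBS) reads an unmethylated cytosine as thymine and leaves a methylated one as cytosine, so the share of methylated reads at a CpG gives its level.

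A CpG was used where both libraries held at least 5 reads, and a tile was a 500-bp stretch with at least 5 such CpGs. Of the 2597411 tiles with a CpG listed in any of the 4 libraries, 1523203 met this rule. They held 16792804 of the 18809798 CpGs that had enough reads in both cell types, or 89.3%. The level of a tile was the mean of its CpG levels, and the change was the iridophore level minus the late NCC level in percentage points. A tile had a median of 9 compared CpGs, 253 reads in iridophores and 303 reads in late NCCs, reads being counted once at each CpG. Mean depth per listed CpG was 25.2 reads in iridophores, 35.2 in melanophores, 30.3 in late NCCs and 24.0 in early NCCs. Each library combines 2 biological replicates, so there is no spread between replicates. Every test sets the reads of 1 library against those of another. The tests, and the intervals of levels and changes, cover counting error only.

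Iridophores were less methylated than late NCCs in most tiles, and losses outweighed gains. The mean tile level was 81.2% in iridophores and 84.8% in late NCCs, a mean change of -3.64 points, with a 95% counting half-width of 0.0049 points. The median change was -1.98 points, and the middle of the distribution ran from -5.22 points at the lower quartile to 0.41 points at the upper. Of all tiles, 70.8% were lower in iridophores. Losses and gains were also summed apart. The gross loss, the sum of all falls divided by the number of tiles, was 4.55 points per tile. The gross gain, formed the same way, was 0.908 points per tile, so that losses were 5.01 times gains. Over single CpGs, where counting error is larger, the gross loss was 5.80 points and the gross gain 2.54 points per CpG, with a mean change of -3.26 points.

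Counting error contributes to both sums. Reads drawn from unchanged tiles would give 1.103 points per tile in each direction, which is more than the whole gross gain. That value holds for unchanged tiles only, and most tiles were lower in iridophores. It therefore does not give the part of counting error in the gross gain. Restricted to tiles whose change exceeded 2 counting standard errors, the gross loss was 3.39 points per tile and came from 26.6% of tiles. The gross gain under the same restriction was 0.375 points per tile and came from 4.05% of tiles. The loss thus kept most of its size under this restriction, and the gain kept less. The whole change of each such tile was summed, with no counting error taken off.

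The fall was made up of many small changes and a smaller number of large ones. Tiles that fell by less than 5 points were 44.6% of all tiles and held 21.9% of the gross loss, but only 13.3% of them exceeded 2 counting standard errors. Tiles that fell by 5 to 10 points held 23.5% of the gross loss, and those that fell by 10 to 20 points held 19.5%. The share fell to 9.94% for falls of 20 to 30 points. It was 13.6% for falls of 30 to 50 points and 11.5% for the 12886 tiles that fell by 50 points or more. The classes differ in width, so the step from 9.94% to 13.6% is one from a narrower to a wider class. Tiles past 30 points were thus few, yet they held about as much of the loss as the many falls of 5 to 10 points. At the steep end, 8.89% of tiles, all with falls of at least 11.5 points, held 50% of the gross loss, and 1% of tiles held 13.2% of it. Gains had another make-up. Gains of less than 5 points held 45.5% of the gross gain, gains of 30 to 50 points held 2.94%, and the 72 tiles with gains of 50 points or more held 0.299%.

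**Figure D1:**
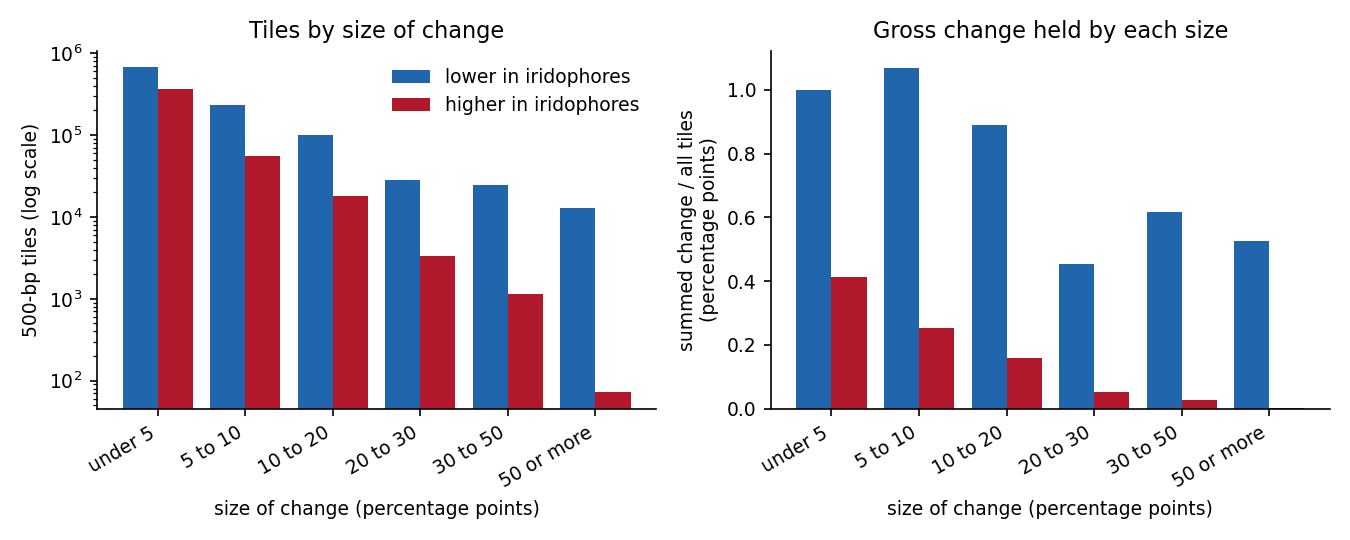
Tiles by size of change between iridophores and late NCCs (left, number of 500-bp tiles on a log axis) and the change each size class holds (right, summed change divided by all tiles, in percentage points), with falls in blue and gains in red. Falls outnumber gains in every class, and the 12886 tiles with falls of 50 points or more stand against 72 tiles with gains of that size.

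A tile was called when its level changed by at least 30 points and the methylated and unmethylated reads differed between the libraries (Fisher's exact test, two-sided, with a Benjamini-Hochberg adjusted p under 0.01 over all tiles). By this rule 37220 of 1523203 tiles, 2.44%, were lower in iridophores and 1135 tiles, 0.0745%, were higher. Of the tiles past 30 points, nearly all passed the test, at 99.5% of those with falls of 30 to 50 points and 93.8% of those with gains of 30 to 50 points. The difference of 30 points therefore decided the calls. Tiles called lower held 25.04% of the gross loss, and tiles called higher held 3.07% of the gross gain. Most of the summed loss lay outside called tiles. The 1484848 tiles not called averaged 82.2% in iridophores and 84.8% in late NCCs, a mean change of -2.60 points.

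The same rule was applied to the neighbouring steps. Melanophores, compared with the same late NCC library, had a mean change of -3.15 points over 1559804 tiles, a gross loss of 4.12 points and a gross gain of 0.977 points per tile. There 37460 tiles, 2.4%, were called lower in melanophores and 898 tiles, 0.0576%, higher. Late NCCs, compared with early NCCs within a single line, had a mean change of -0.99 points over 1388224 tiles, with a gross loss of 1.92 and a gross gain of 0.936 points per tile. In that step 1083 tiles, 0.078%, were called lower in late NCCs and 217 tiles, 0.0156%, higher. The gross gain was thus of about the same size in all 3 steps and close to what counting error would give, while the gross loss differed. Between the pigment cells, which share a line and an age, the mean change was -0.48 points (iridophores minus melanophores). Of 1543915 tiles, 8866, or 0.574%, were called lower in iridophores than in melanophores, and 7074, or 0.458%, were called higher.

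Called falls ended at an intermediate level more often than at a low one. Tiles called lower had median levels of 42.5% in iridophores and 90.3% in late NCCs. Their median change was -43.5 points, and the rule for a call selects these values. In iridophores 12.9% of them were below 20%, made up of 3.46% below 10% and 9.49% from 10 to 20%. A further 31.8% lay between 20% and 40%, and 45.01% lay between 40% and 60%. Cells that differ from each other and alleles that differ within a cell cannot be told apart at an intermediate level. Within a called tile the fall was spread over its CpGs. The call needs a mean fall of at least 30 points over these same CpGs, which favours high shares of lower CpGs. The shares are therefore a description. The median tile had 80% of its CpGs lower by at least 20 points, 18.7% of tiles had all of them lower by that much, and 3.45% had under 50% of them. The changes of CpGs nevertheless varied within a tile, with a median SD of 26.1 points between them. That SD includes the counting error of single CpGs, which was not taken out.

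The libraries that took no part in the call placed these tiles further. Tiles called lower in iridophores had a median level of 57.4% in melanophores and 94.7% in early NCCs. They were therefore highly methylated at both neural crest stages. Their level in melanophores lay between that of iridophores and that of late NCCs, beside a median of 87.8% in melanophores over all tiles. The call sets iridophores at least 30 points below late NCCs, which favours this order. Of the called tiles with a melanophore value, 49.3% were at least 30 points lower in melanophores than in late NCCs, beside 2.43% of all tiles. The late NCC library enters both differences. The rule needed both libraries to be read, and 37053 of the 37220 tiles had a melanophore value and 34146 an early NCC value.

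Tiles called higher were of another kind. Their median level was 68.8% in iridophores and 30.5% in late NCCs, and 30.1% of them were below 20% in late NCCs. The rule selects these levels too, since a tile at 80% or more in late NCCs cannot gain 30 points. Dense tiles started lower than sparse ones, and called gains were not compared with tiles of like starting level. Tiles called higher were CpG-rich, with a median of 14 listed CpGs, against 9 in tiles called lower and 10 over all tiles. They had a median of 61.9% in melanophores and 37.9% in early NCCs. Their depth was lower, at a median of 184 reads in iridophores and 219 reads in late NCCs, and 42.0% of them came from the lowest quartile of tiles by iridophore reads. The part of depth in these calls was not tested.

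The gross loss per tile, which includes counting error, differed little between late NCC levels above 40%. The gross loss per tile was 4.31 points in tiles at 40 to 60%, 4.62 at 60 to 80%, 4.56 at 80 to 90%, 4.68 at 90 to 95% and 5.03 at 95 to 100%. It was 2.80 points at 20 to 40% and 0.49 points below 20%, where a fall of 30 points is not possible. The gross gain ran the other way, from 7.12 points per tile at 20 to 40% and 4.13 at 40 to 60% to 0.155 at 95 to 100%. Tiles near 100% have little room for a gain. Below 40% gains exceeded losses, so that those tiles averaged higher in iridophores, with a mean change of 1.60 points below 20% and 4.32 points at 20 to 40%. At 40 to 60% the sums nearly cancelled, with a mean change of -0.18 points. Above that the mean change grew to -4.88 points at 95 to 100%, as the gross gain shrank and the gross loss rose little. Because 80.7% of tiles were at 80% or more in late NCCs, the highly methylated tiles held most of the loss.

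**Figure D2:**
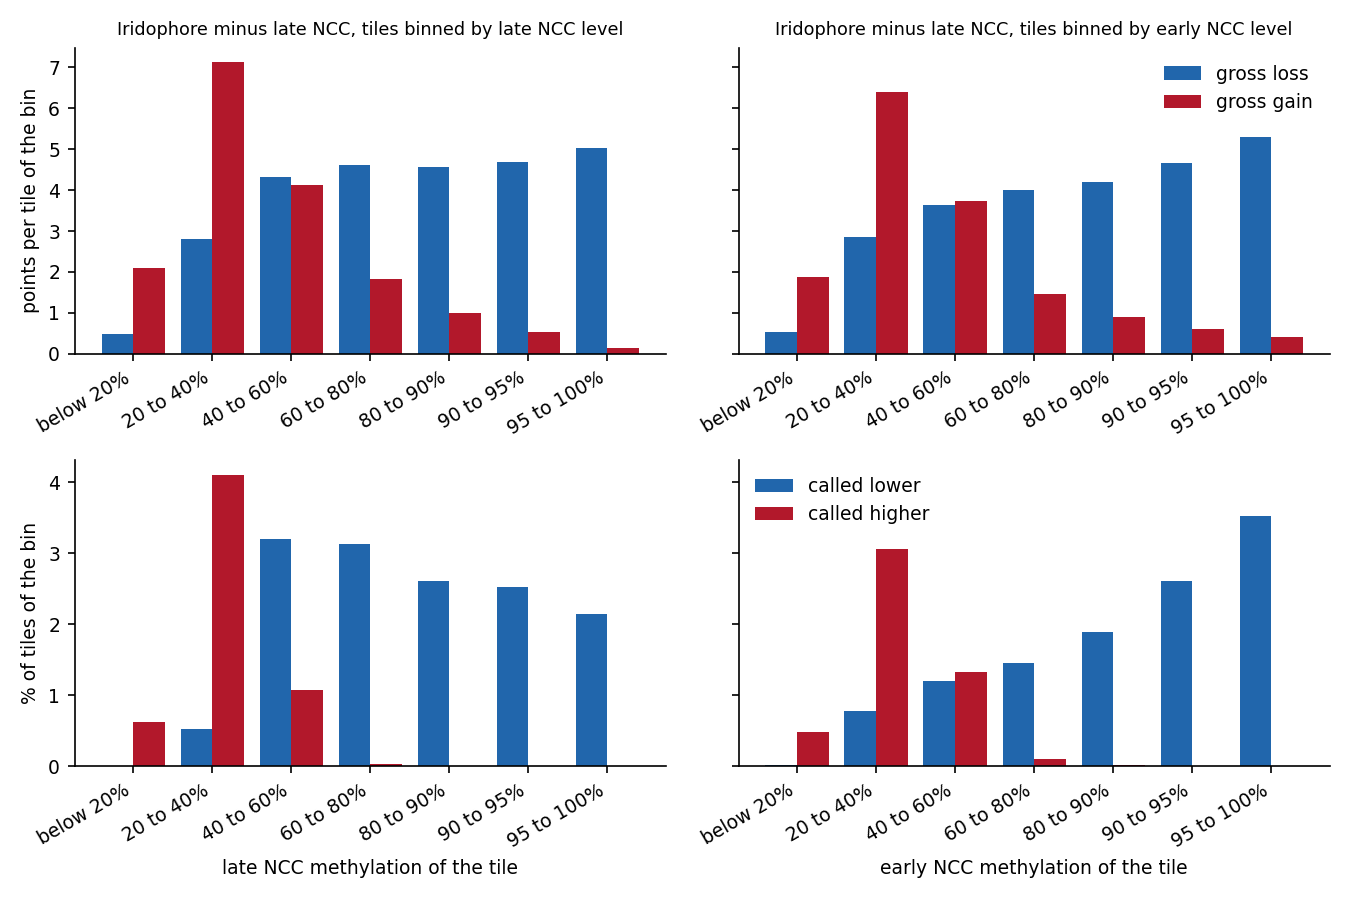
Change between iridophores and late NCCs by starting level, with tiles binned by late NCC level (left) or by early NCC level (right). The upper panels give gross loss (blue) and gross gain (red) in points per tile of the bin, and the lower panels the percentage of tiles called lower or higher. Above 60%, the called-lower share falls with late NCC level (3.13% at 60 to 80% and 2.14% at 95 to 100%) and rises with early NCC level (1.45% and 3.52%).

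Above 60%, the direction of the split for called falls turned with the library used for the starting level. Binned by late NCC level, the share of tiles called lower was 3.13% at 60 to 80%, 2.62% at 80 to 90%, 2.53% at 90 to 95% and 2.14% at 95 to 100%. Binned by early NCC level, a library outside the comparison, it was 1.45% at 60 to 80%, 1.89%, 2.61% and 3.52% at 95 to 100%. The late NCC level enters both the bin and the change, and the early NCC level does not. Part of the tiles called lower already lay lower in late NCCs than in early NCCs. Those that started at 60 to 80% in late NCCs had a median early NCC level of 86.2%, beside 77.2% over all tiles of that bin, and 35.9% of them were at 90% or more in early NCCs, beside 5.38% of all tiles of the bin. By early NCC level the gross loss was 4.006 points per tile at 60 to 80% and 5.29 points at 95 to 100%.

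The loss was smaller in tiles with more CpGs. The mean change was -4.80 points in tiles with 5 to 6 listed CpGs, -4.42 with 7 to 9, -3.70 with 10 to 14, -2.65 with 15 to 19, -1.52 with 20 to 29 and -0.76 with 30 or more. The share called lower was 3.32% in the sparsest tiles and 0.0612% in the densest, where 27 of 44153 tiles were called. The share called higher ran the other way, from 0.0307% in tiles with 5 to 6 CpGs to 0.176% with 20 to 29 and 0.138% with 30 or more. Sparse tiles had fewer reads, with a median of 137 iridophore reads at 5 to 6 CpGs and 888 at 30 or more, so a given change was measured less precisely there.

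The order by density was also seen among tiles of like late NCC level. In tiles at 95 to 100% in late NCCs, the mean change was -6.22 points with 5 to 6 CpGs and -2.12 points with 30 or more. At 80 to 90% it was -4.71 and -0.60 points. The share called lower fell with density in each of these classes, to 0.0772% and 0.0641% in the densest tiles. The small changes showed the same order, since tiles not called averaged -3.38 points with 5 to 6 CpGs and -0.79 points with 30 or more. In the other pairs the mean change also shrank with density, from -3.84 to -0.59 points in melanophores against late NCCs and from -1.39 to -0.21 points in late against early NCCs. These pairs share libraries and are given side by side only.

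**Figure D3:**
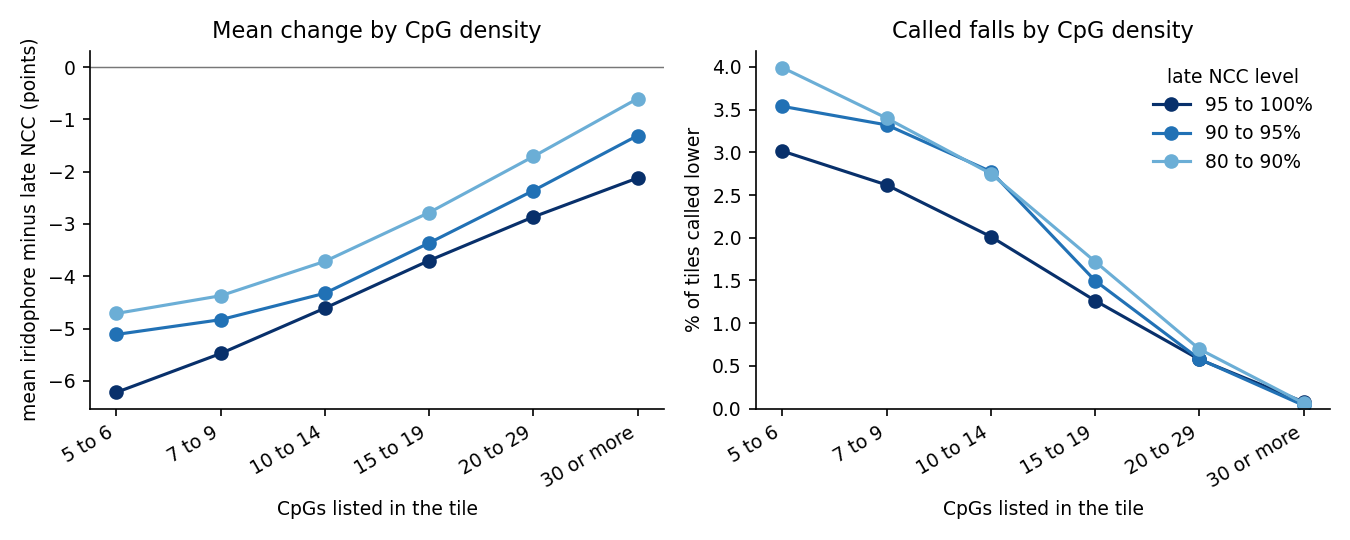
Mean change (left, iridophore minus late NCC, in percentage points) and percentage of tiles called lower (right) by the number of CpGs listed in a tile, with tiles split by late NCC level (95 to 100%, 90 to 95%, 80 to 90%). In each level class the change shrinks and the called share drops as density rises.

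The loss was present on every chromosome and in every large window. All 25 chromosomes had a lower mean level in iridophores, from -3.97 points on chromosome 13 to -3.17 points on chromosome 22, and on each the gross loss exceeded the gross gain. The share called lower ran from 1.98% on chromosome 2 to 2.82% on chromosome 11. Of 1350 windows of 1 Mb with at least 200 tiles, all had a negative mean change, also over the tiles not called, for which the windows ranged from -6.46 to -0.057 points around a median of -2.59. Called tiles were spread unevenly over the same windows. A window held a median of 25 of them, 16 windows held none and the highest held 112. On chromosome 4, windows that start at 0 to 25 Mb had 2.35% to 8.65% of their tiles called lower. Its windows that start at 26 Mb or beyond had 0% to 2.19%, so the share of this whole chromosome averages unlike parts. The window with -6.46 points over tiles not called is also on chromosome 4, at 57 Mb. The variance of the count was 11.9 times its mean, and the 135 windows with the most called tiles held 23.7% of them. Across windows, the share called and the mean change of the tiles not called had a Pearson r of -0.28 over 1350 windows, which share their libraries and depth. Tiles within 1 Mb of a chromosome end, 2.08% of which were called lower, lay near the share of the others, at 2.46%.

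Called falls formed short runs and lay near each other. Directly adjacent called tiles were joined into runs, of which there were 31965. Of these, 27339 were single tiles, which held 73.5% of called tiles, and the longest run had 9 tiles. A run also ends where the next tile held too few compared CpGs. At 0.5 kb further along, 59.6% of called tiles had a compared tile, beside 67.4% of all tiles. The runs can therefore be shorter than the falls themselves. A called tile had a directly adjacent called tile in 26.5% of cases, beside 2.84% of all tiles. Within 10 kb, 70.7% of called tiles had another, beside 31.3% of all tiles. The share was 31.5% among tiles at 80% or more in late NCCs, much like that of all tiles. A run ends where the next tile is not called lower, so by definition no tile directly beside a run is called lower. Uncalled tiles at 500 bp from a run averaged 80.3% in iridophores and 87.5% in late NCCs, a change of -7.16 points, and at 1 kb the change was -2.58 points. Over all tiles, called or not, the change was -7.15 points at 500 bp, -4.57 points at 1 kb and -7.29 points at 3 kb. Uncalled tiles at 100 kb or more from any called tile still averaged -2.48 points. The shallow loss far from called tiles was thus near that of uncalled tiles at 1 kb. It was smaller than at 3 kb from a run, where uncalled tiles averaged -3.60 points.

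The spacing of called tiles was not a simple decline. The Wilson intervals given here count tile pairs as independent. Called tiles cluster and a tile can enter more than 1 pair, so these intervals can be too narrow. Where a called tile had a comparable tile at a given distance, that tile was also called in 23.7% of cases at 0.5 kb (Wilson 95% interval 23.1 to 24.3%), beside 2.16% when starting from any tile. The share dropped to 5.35% at 1.5 kb (interval 5.05 to 5.66%) and was higher again at 3 kb, at 8.88% (interval 8.51 to 9.26%), beside 2.49% from any tile. It was 6.46% at 10 kb, 3.52% at 100 kb and 2.54% at 1 Mb, where it had reached the level of any tile (2.45%). Uncalled tiles around runs followed the same course, with -2.60 points at 1.5 kb and -3.60 points at 3 kb. Melanophores, set against the same late NCC library, had a dip and rise too, with 4.88% at 1.5 kb and 8.40% at 3 kb. Late against early NCCs had few calls, and the share there was 0.554% at 1.5 kb and 0.517% at 3 kb, on 3 called partners at each distance. Fewer called tiles than tiles in general had a comparable partner at 1 kb (54.7% and 61.9%), a partner being absent where it held too few compared CpGs. The part of this in the dip was not tested. Tiles called higher were also grouped, with 24.3% directly adjacent to another, beside 0.0843% of all tiles, and 985 runs of up to 5 tiles.

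**Figure D4:**
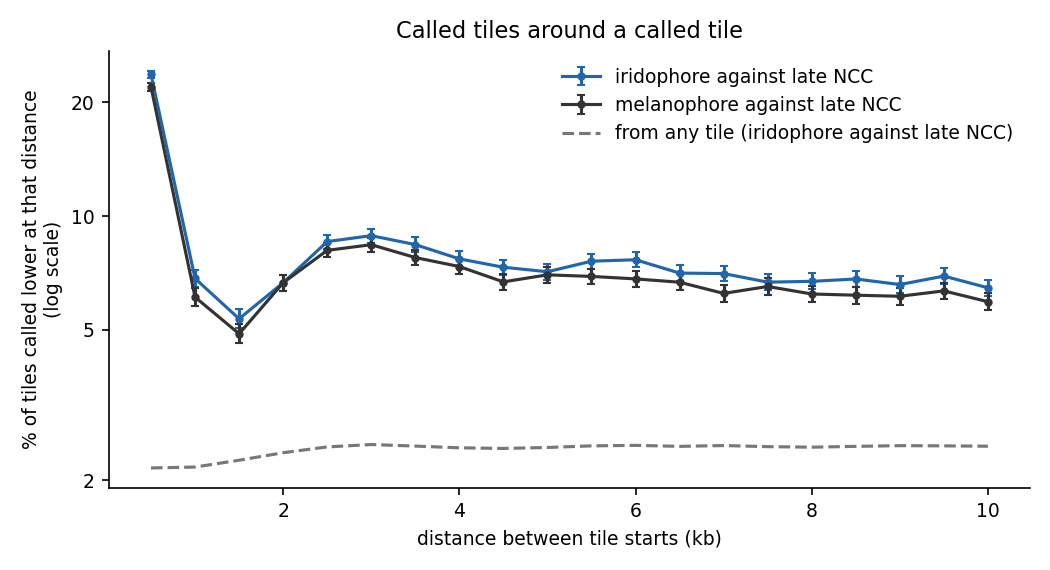
Percentage of tiles called lower (log axis) at 0.5 to 10 kb from a called tile, for iridophores against late NCCs (blue) and melanophores against late NCCs (black), with Wilson 95% intervals, and the same from any tile (dashed grey). The intervals count tile pairs as independent. Both solid curves dip at 1.5 kb (5.35% and 4.88%) and rise at 3 kb (8.88% and 8.40%), above the dashed line at every distance.

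The share called lower varied little with distance to unmethylated sequence. Among tiles at 80% or more in late NCCs, 2.60% of those between 1 kb and 2.5 kb from a tile below 20% in late NCCs were called lower, and 2.41% of those at 25 kb or more. The mean change was -4.02 and -4.33 points at these distances.

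The largest runs are given by position on danRer10, the build of the files, with no gene annotation of that build at hand. They were chosen for the size of their fall, so their iridophore and late NCC levels are descriptions, while the other libraries had no part in the choice. Errors are 95% counting half-widths. The longest run, at chr22:11128001-11132500, had 141 CpGs in 9 tiles. Its level was 34.4% ± 1.1 in iridophores (5560 reads) and 86.7% ± 0.76 in late NCCs, with 6804 reads. Each tile passed Fisher's exact test, the largest adjusted p (Benjamini-Hochberg) being 5.75e-16. It was 36.1% ± 0.88 in melanophores and 95.6% ± 0.48 in early NCCs, so both pigment cell libraries were low. The run at chr7:36280001-36282500 reached the lowest level of the 10, at 9.6% ± 0.98 in iridophores against 74.0% ± 1.3 in late NCCs. There melanophores had 14.3% ± 0.99 and early NCCs 89.9% ± 0.95, so the level was already lower in late than in early NCCs.

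Other runs separated the pigment cells. At chr9:43572001-43574000, 56 CpGs had 19.9% ± 1.6 in iridophores, 72.7% ± 1.7 in melanophores, 95.6% ± 0.76 in late NCCs and 96.9% ± 0.72 in early NCCs. At chr4:18971501-18973500 the levels were 17.5% ± 2.3 in iridophores, 54.7% ± 2.4 in melanophores and 93.4% ± 1.6 in late NCCs. At chr10:17382001-17384500 melanophores were lower than iridophores, with 30.3% ± 1.8 in iridophores, 24.2% ± 1.5 in melanophores and 90.4% ± 0.87 in late NCCs. Iridophores had the lower level of the pigment cells in 9 of the 10 runs, which were chosen by the iridophore level. Single tiles could fall as far. The tile at chr8:7224001-7224500, with 19 CpGs, had 6.9% ± 2.1 in iridophores against 96.9% ± 1.1 in late NCCs, and 12.5% ± 2.2 in melanophores. The tile at chr12:43787001-43787500, with 12 CpGs, had 6.1% ± 2.5 in iridophores, 50.8% ± 4.7 in melanophores and 94.7% ± 2.7 in late NCCs.

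**Figure D5:**
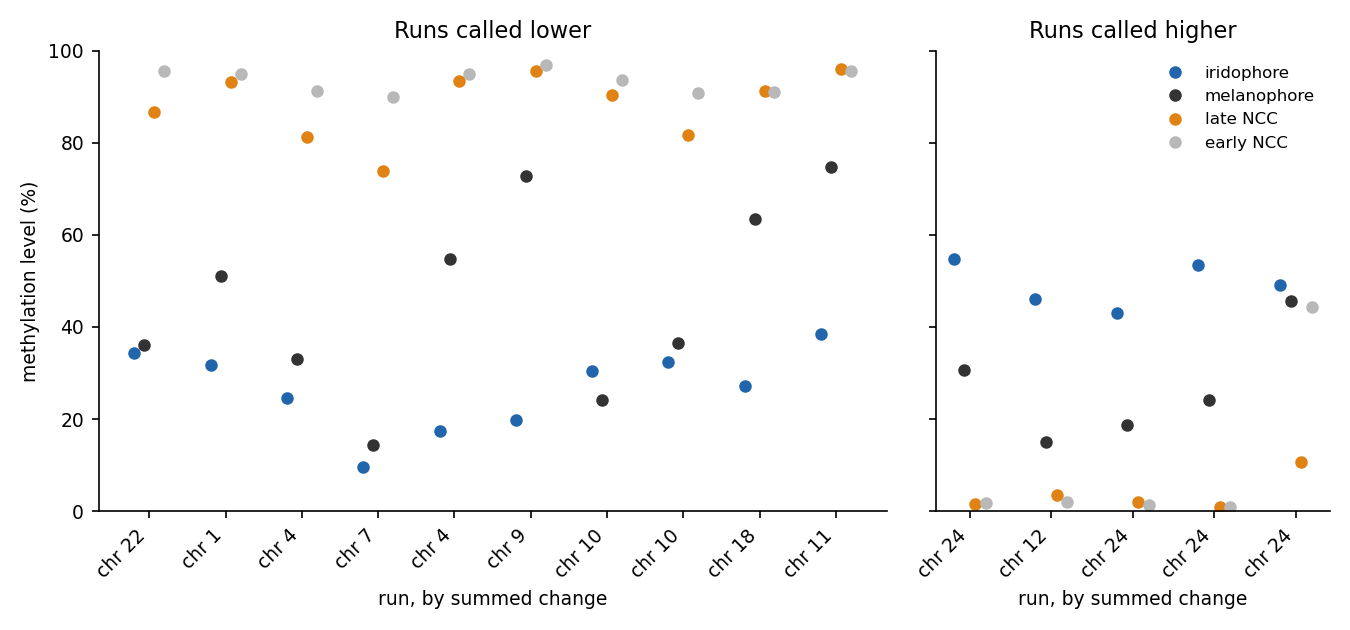
Methylation level (percent) in iridophores, melanophores, late NCCs and early NCCs of the 10 runs called lower with the largest summed fall (left) and the 5 runs called higher with the largest summed gain (right), labelled by chromosome. Late and early NCCs lie between 74.0% and 96.9% in every run on the left, while melanophores range from 14.3% to 74.7%.

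The tenth run lies in a stretch shown for pnp4a, which encodes a purine nucleoside phosphorylase and is a marker of iridophores. At chr11:24055501-24058000 its 46 CpGs had 38.5% ± 2.9 in iridophores and 96.1% ± 0.98 in late NCCs, with 74.7% ± 1.9 in melanophores and 95.6% ± 1.4 in early NCCs. The run is inside an accessible stretch that the study's browser view marks at this gene, read from that view by eye, with CpGs from 24051249 to 24061398. Over the whole stretch the level was 29.98% ± 1.6 in iridophores, 62.4% ± 1.3 in melanophores, 79.7% ± 0.90 in late NCCs and 84.1% ± 1.2 in early NCCs. The stretch spans 11000 bp, of which only 11 tiles held enough compared CpGs. Of these, 8 were called lower in iridophores, beside 2.44% of all tiles. The stretch holds a run chosen for the size of its fall, so this share is a description. The deepest fall, at chr11:24055501-24056000, was to 22.4% in iridophores, against 96.8% in late NCCs. The tile at 24053501 missed the 30-point rule with a change of -29.6 points. The other 2 compared tiles, at 24060001 and 24060501, were already low, with 4.25% and 0% in iridophores and 16.9% and 1.82% in late NCCs. They did not pass the test (Fisher's exact test with Benjamini-Hochberg adjustment, p = 0.122 and 0.540).

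Of the 5 runs with the largest summed gain, 4 were on chromosome 24, and 3 of these lay close together between 16986501 and 16998000. In these 3 runs iridophores had 54.8% ± 3.2, 43.0% ± 3.2 and 53.4% ± 3.7, against 1.5% ± 0.90, 2.0% ± 1.0 and 0.83% ± 0.56 in late NCCs. Melanophores lay between them, with 30.6%, 18.7% and 24.1%, and early NCCs were as low as late NCCs, at 0.98% to 1.7%. A run at chr12:34608001-34610500 had the same order, with 46.1% ± 2.1 in iridophores, 15.0% ± 1.7 in melanophores, 3.6% ± 1.2 in late NCCs and 1.9% ± 0.94 in early NCCs. The fifth run, at chr24:20973501-20975500, differed. Its level was 49.0% ± 2.7 in iridophores, 45.6% ± 2.4 in melanophores and 44.3% ± 3.1 in early NCCs, so that late NCCs, at 10.6% ± 1.9, were the library that stood apart. Read alignment and differences between single libraries or fish lines were not tested as sources of the gains in these 5 runs.

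The called tile nearest to the 30-point threshold, at chr2:54312001-54312500, had 70.0% in iridophores and 100% in late NCCs on 6 CpGs. The nearest tile that passed the read test without reaching 30 points, at chr15:35431501-35432000, had 50.8% in iridophores and 80.8% in late NCCs, also on 6 CpGs.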

How the data were processed

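Genomic DNA of 2 biological replicates per cell type was bisulfite treated and sequenced, and the authors combined the replicates into 1 library. Reads were trimmed with Cutadapt, aligned to danRer10 with Bismark and cleared of duplicates with Picard MarkDuplicates, and a custom script gave values per CpG (versions are not given in the sources used here). As deposited by the authors, each CpG has its methylation level, a fraction of methylated reads, and its read count, which is raw coverage. Level times reads lay within 0.0044 of a whole number, which was taken as the methylated reads. Start positions count from 0 in the files and are printed from 1. Incomplete bisulfite conversion would raise levels, and reads over several CpGs count once at each, so p-values can be too small and intervals too narrow.

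Tiles of 500 bp began at position 0 of each chromosome. The counting standard error of a change was summed from the binomial errors of its CpGs. CpG density was the number of CpGs listed in any library, not a genome count. Levels were compared with two-sided Fisher's exact tests on summed reads, adjusted by the Benjamini-Hochberg method over all tiles. The 30 points and the value 0.01 were taken from the DMR thresholds in the study's methods. There 0.01 was a p threshold of the DSS tool with smoothing. Here it applies to an adjusted p of tile reads, so the thresholds are not alike. Runs named were the 10 largest falls and 5 largest gains by summed change, the single tiles those with the largest falls among tiles with at least 10 CpGs and 200 reads in each library, and pnp4a was the only locus placed. The comparison, the bins and these rules were chosen with earlier results of these data known. The test code was tested on simulated data. Analyses used Python 3.11.15, numpy 2.4.6, pandas 2.3.3, scipy 1.17.1, numba 0.67.0 and matplotlib 3.10.9. Alternatives varied the depth, the CpG minimum, the tile, the level and the thresholds. The ATAC-seq and mRNA-seq libraries of the series were not used here.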

Additional observations from a re-analysis of the deposited data

Results flagged for a closer look

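Both pigment cell libraries were set against the same late NCC library, and the iridophore and melanophore levels were also tested against each other in the same tiles (Fisher's exact test, two-sided, with a Benjamini-Hochberg adjusted p under 0.01, and a difference of at least 30 points). Of the tiles called lower in iridophores than in late NCCs, 36985 had enough CpGs to compare with melanophores. In 8556 of them, or 23.1%, iridophores were also called lower than melanophores, and in 181, or 0.489%, they were called higher. Over all tiles compared between the pigment cells, 0.574% were called lower in iridophores and 0.458% higher, so the share called higher was near that of all tiles. The median difference, iridophores minus melanophores, was -14.5 points. The tiles were chosen by a low iridophore level, and the same iridophore library enters the second test, so these counts are a description.

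Of the 1098 tiles called higher in iridophores than in late NCCs with enough CpGs to compare, 22, or 2.004%, were also called higher in iridophores than in melanophores and 0 were called lower, beside the same 0.458% and 0.574% over all tiles. Their median difference, iridophores minus melanophores, was 5.79 points. The runs between 16986501 and 16998000 on chromosome 24 and at chr12:34608001-34610500 had iridophore levels more than 20 points above those of melanophores.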

How the results depend on the processing

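The mean change of a tile was -3.64 points, and it was -3.76 with at least 10 reads per CpG, -3.75 with at least 3 CpGs, -3.01 with at least 10 CpGs, -3.77 in 1000-bp tiles, -3.31 in 250-bp tiles, -3.77 from methylated reads over all reads, -3.79 from the median of CpG levels and -3.64 without chromosome 4. In the same order the gross loss was 4.53, 4.82, 3.77, 4.50, 4.35, 4.69, 4.86 and 4.54 points per tile, and the gross gain 0.777, 1.07, 0.764, 0.735, 1.04, 0.915, 1.07 and 0.903. Without CpGs over 100 reads the gross gain was 0.914, and tiles shifted by 250 bp moved none of these beyond counting error. Tiles called lower were 37220 of 1523203 tiles (2.44%). They were 14327 of 735510 (1.95%) with 10 CpGs and 22110 of 1099041 (2.01%) in 1000-bp tiles. With other thresholds on the 1523203 tiles they were 63497 (4.17%) at 20 points and 12886 (0.846%) at 50 points. Tiles called higher were 1135 of the 1523203 tiles, and 2002 from the median, 3702 at 20 points and 72 at 50 points of the same number. They were 607 of 735510 with 10 CpGs, 546 of 1099041 in 1000-bp tiles and 1738 of 1608817 in 250-bp tiles. The ratio of calls lower to calls higher ran from 17.2 to 179.0. Called tiles held 25.04% of the gross loss, and 27.6% with 10 reads, 24.2% with 3 CpGs, 24.1% with 10 CpGs, 19.4% in 1000-bp tiles, 28.8% in 250-bp tiles, 25.2% in shifted tiles, 27.3% from all reads, 30.5% from the median, 25.04% without deep CpGs, 25.2% without chromosome 4, 34.3% at 20 points, 11.5% at 50 points and 25.1% by difference alone. By early NCC level, 3.52% of tiles at 95 to 100% were called lower, beside 2.14% by late NCC level, and in tiles at 80% or more in late NCCs 3.47% of those with 5 to 6 CpGs were called, beside 3.32%. Directly adjacent called tiles were 32.6% of called tiles in 250-bp tiles, an alternative chosen after seeing the data, beside 26.5%. In every alternative that gave these values, the mean change was negative, the gross loss exceeded the gross gain and calls lower outnumbered calls higher. The cause of the shifts in size was not tested.

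No paired analysis was possible because the replicates are combined in each file, and leaving out a replicate was not possible for the same reason. The limits are those of 2 libraries from 2 fish lines at 2 ages. Small changes of single tiles are of the size of counting error, with a median change of -1.98 points and a median standard error of 2.48 points. Tiles with fewer than 5 compared CpGs were not analysed here.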
